A study of Homo sapiens with 9 samples.

Results

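The enzymes that write and remove 5-methylcytosine were followed in LN229 cells, an established human glioblastoma line, before and after addition of sodium formate. The 8 genes were taken by name from the deposited count table of 23727 genes. They are the methyltransferases DNMT1, DNMT3A and DNMT3B, the dioxygenases TET1, TET2 and TET3, the DNA glycosylase TDG and the ring finger protein UHRF2. All 8 passed the filter on low counts, as did 15273 genes in all. The study held 9 libraries in 3 groups of 3: untreated cells at 0 h, cells given 500 µM Na-Formate for 8 h, and cells given the same dose for 24 h. The medium of all 3 groups was DMEM to which 10% fetal bovine serum, glutamine at 2 mM and glucose at 17 mM had been added. The source label spells the line LN299, while the growth protocol spells it LN229. Untreated cells were sampled at 0 h only, so exposure to formate and time in culture cannot be told apart. The labels number the replicates but do not say that they came from separate cultures, so p-values measure the spread between these libraries, which may be technical.

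Methylation of cytosine in CG dinucleotides is copied onto the new strand at replication by DNMT1, which UHRF1 helps to bring to hemimethylated DNA. On unmethylated DNA it is set by DNMT3A and DNMT3B. The TET enzymes oxidise 5-methylcytosine to 5-hydroxymethylcytosine and beyond, using oxygen, iron and 2-oxoglutarate, and TDG cuts out the most oxidised forms so that base excision repair can place an unmodified cytosine. Formate enters the folate cycle as a source of single carbons, some of which methionine synthase passes to homocysteine. Methionine made this way can become S-adenosylmethionine, the methyl donor of all DNA methyltransferases. Only RNA was measured here, and neither methylation nor hydroxymethylation of DNA.

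DNMT3A and TET1 were the members with the largest differences, and sequence before a RefSeq start is shown for both together with the paralogue each is compared with below, DNMT3B and TET2. Each sequence is the 250 bases before the RefSeq start farthest upstream in GRCh38.p14, written 5′ to 3′ on the strand of the gene, with every CG dinucleotide, the substrate of these enzymes, in capitals. TET1 is at chr10:68560087-68560336 on the plus strand, and TET2 at chr4:105145625-105145874 on the plus strand. DNMT3A is at chr2:25342591-25342840 on the minus strand, and DNMT3B at chr20:32779602-32779851 on the plus strand. The DNMT3B window lies within the gene as GENCODE release 29 draws it, downstream of an earlier start listed there, and none of the 4 windows overlaps an annotated exon of its gene.
TET1: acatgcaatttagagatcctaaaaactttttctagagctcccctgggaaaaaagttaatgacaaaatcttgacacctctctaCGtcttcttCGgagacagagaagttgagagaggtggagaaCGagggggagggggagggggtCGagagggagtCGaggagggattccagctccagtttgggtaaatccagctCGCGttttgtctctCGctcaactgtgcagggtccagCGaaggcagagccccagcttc
TET2: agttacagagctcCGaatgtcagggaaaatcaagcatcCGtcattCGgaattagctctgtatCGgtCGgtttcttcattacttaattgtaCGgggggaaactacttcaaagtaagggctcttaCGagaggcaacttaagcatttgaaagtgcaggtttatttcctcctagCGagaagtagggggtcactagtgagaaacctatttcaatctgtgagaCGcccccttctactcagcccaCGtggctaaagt
DNMT3A: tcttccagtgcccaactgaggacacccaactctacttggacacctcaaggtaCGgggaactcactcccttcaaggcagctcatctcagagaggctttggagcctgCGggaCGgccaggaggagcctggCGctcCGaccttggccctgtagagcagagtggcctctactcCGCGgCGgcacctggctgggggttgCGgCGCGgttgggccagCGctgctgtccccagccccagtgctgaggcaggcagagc
DNMT3B: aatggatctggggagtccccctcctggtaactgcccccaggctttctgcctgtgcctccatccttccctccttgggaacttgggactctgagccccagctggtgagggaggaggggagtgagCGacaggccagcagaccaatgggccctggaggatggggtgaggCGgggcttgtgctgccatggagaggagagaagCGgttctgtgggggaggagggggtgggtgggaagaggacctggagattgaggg

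The windows differed in CG content. DNMT3A held 12 CG dinucleotides, TET2 held 10, TET1 held 9 and DNMT3B held 3. The DNMT3B window lies inside the gene, so its count does not describe the sequence before the earlier start. The median over 34943 windows of the same length was 11, and 93.9% of them held at least 1 CG. On either strand, GGGCGG, the core of a GC box, was in none of the 4 windows and in 42.5% of all windows. TTTCCCGC and TTTGGCGC, forms of the E2F motif, were likewise in none, and in 1.39% and 0.547% of all windows. CACGTG, the canonical E-box, was in the TET2 window only, and in 6.32% of all windows. A match describes these letters alone. The RefSeq starts listed were 3 for TET1, 2 for TET2, 6 for DNMT3A and 1 for DNMT3B. Only the farthest upstream was read, and which start these cells use was not measured.

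Per kilobase of merged exons, DNMT1 was the most abundant of the 8 transcripts. Its level was 38.6 CPM per kilobase (CPM, counts divided by the TMM-scaled library total) as a mean over the 9 libraries, with a range of 33.4 to 45.4, above 92.3% of the tested genes that have a length. TDG followed at 6.75 (6.09 to 7.82) and UHRF2 at 6.68 (5.61 to 7.68), and these ranges overlapped each other. TET3 stood at 4.19, DNMT3B at 3.85, DNMT3A at 2.62 and TET2 at 2.23, each overlapping its neighbour in that order. TET1 was lowest, at 0.395 (0.127 to 0.678), above 12.1% of the tested genes. The neighbours whose ranges over libraries did not overlap were DNMT1 and TDG, UHRF2 and TET3, and TET2 and TET1. With the longest transcript as the length, UHRF2 moved to second place at 17.8 CPM per kilobase, since its merged exons span 9.92 kb and its longest transcript 3.72 kb. TET2 then stood above DNMT3A, at 3.61 against 3.32, again with overlapping ranges.

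**Figure D1:**
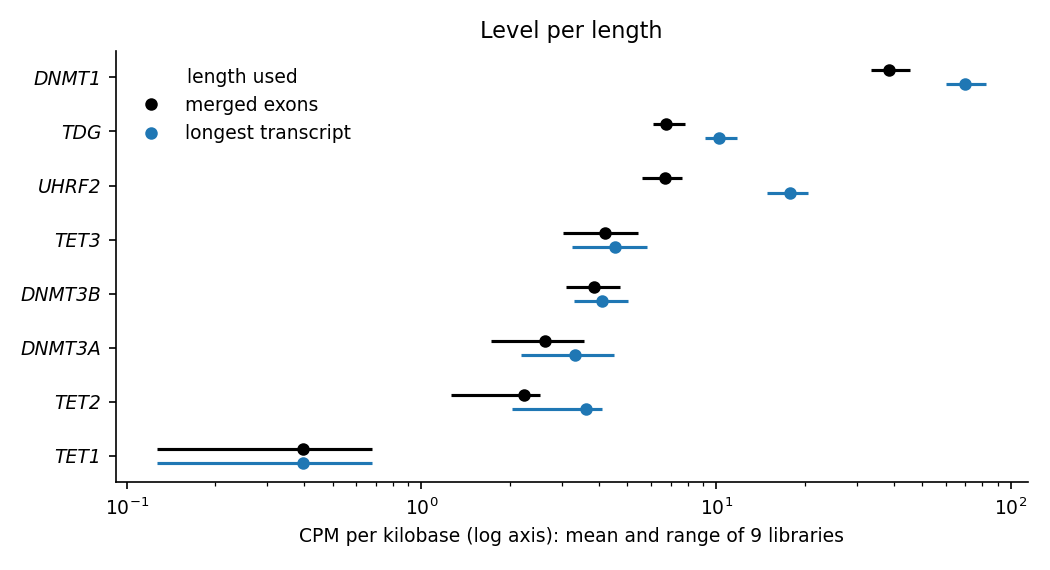
Level of each of the 8 genes in CPM per kilobase on a logarithmic axis, as the mean (point) and range (line) of 9 libraries, for 2 definitions of length. DNMT1 lies above all others and TET1 below all others with either length, while TDG and UHRF2 exchange places.

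In the comparison of 8 h with 0 h, 0 of the 8 genes passed edgeR's quasi-likelihood test at a Benjamini-Hochberg adjusted p of 0.05, beside 0 percent of all tested genes. In that of 24 h with 0 h 0 of the 8 passed, beside 4.25% of all tested genes, and at 24 h against 8 h 0 of the 8 passed, beside 4.56%. At an unadjusted p under 0.05 the members were 0 at 8 h against 0 h, 2 at 24 h against 0 h (DNMT3A and TET1) and 3 at 24 h against 8 h (these and DNMT3B). All tested genes had such a p in 0.517%, 26.4% and 22.8% of cases, so the members' counts are near that background. DESeq2 called 0, 2 and 2 of the 8 in the same order, beside 0 percent, 10.9% and 10.2% of the genes it tested, and the 2 were DNMT3A and TET1, both higher at 24 h (5.81% and 5.69% of the genes tested were called higher). The same edgeR fit with the replicate number as a block, which is described with the processing, called DNMT3A and TET1 at 24 h against 0 h. Those 2 of 8 stood beside 24.1% of all tested genes, a share near that background, and beside 12.6% called higher, the direction of both. The libraries of the groups compared did not overlap for 1 member at 8 h against 0 h (TDG, higher), beside 3.31% of all tested genes, or 1.43% in that direction. They did not overlap for 3 members at 24 h against 0 h (DNMT3A and TET1 higher, DNMT3B lower), beside 30.3% (15.9% higher, 14.4% lower), and for 2 against 8 h (DNMT3A and TET1 higher), beside 34.3% (18.2% higher). These counts of members without overlap lie within 1 gene of what the background gives. The comparisons share libraries, so their values are given side by side and not as support for each other.

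**Figure D2:**
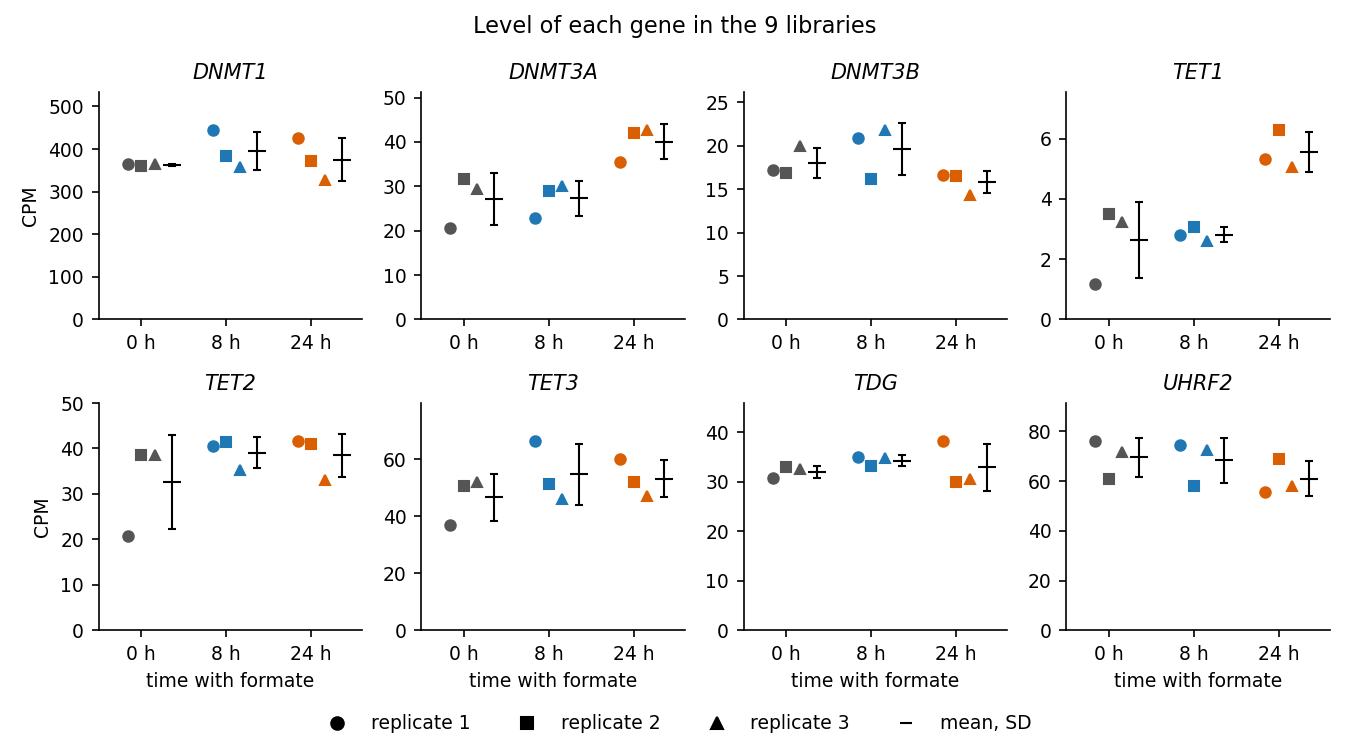
CPM of each of the 8 genes (vertical axes from 0, one scale per gene) in the 9 libraries by time with formate, with the group mean and SD of 3 libraries. The 3 libraries of 24 h lie above all others for DNMT3A and TET1, and untreated replicate 1 lies lowest for DNMT3A, TET1, TET2 and TET3.

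The maintenance enzyme DNMT1 (ENSG00000130816, chr19:10133345-10231286, minus strand) was the steadiest member before treatment. Its untreated libraries held 364, 360 and 365 CPM, those of 8 h 445, 384 and 358, and those of 24 h 427, 372 and 327. The formate groups spread more widely than the untreated one and enclosed it, so the groups overlapped. The mean was 363 ± 2.53 CPM at 0 h and 375 ± 50.4 at 24 h (SD, n = 3 each). The log2 fold change at 24 h was 0.05 (SE 0.12) with an edgeR adjusted p of 0.825, and at 8 h it was 0.12 (SE 0.12) with an adjusted p of 1. Of its merged exons, 0.847% overlap the neighbouring gene S1PR2 on the same strand.

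UHRF2 (ENSG00000147854, chr9:6413151-6507054, plus strand) is the paralogue of the DNMT1 partner UHRF1 and binds 5-hydroxymethylcytosine. It was counted at 76.2, 60.9 and 71.6 CPM at 0 h, at 74.5, 58.1 and 72.4 at 8 h, and at 55.6, 68.8 and 58.2 at 24 h. Replicate 2 was the lowest of its group at 0 h and 8 h and the highest at 24 h, and the groups overlapped. The log2 fold change at 24 h against 0 h was -0.19 (SE 0.13) with an edgeR adjusted p of 0.354. UHRF1 itself, named here after its values were seen, had a log2 fold change of -0.09 (SE 0.12) and an edgeR adjusted p of 0.657. Within single libraries the UHRF2 to UHRF1 ratio of counts per kilobase lay between 0.359 and 0.556, and its groups overlapped.

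DNMT3A (ENSG00000119772, chr2:25227855-25342590, minus strand), a de novo methyltransferase of somatic cells, was higher at 24 h in every library. Its untreated libraries held 20.7, 31.7 and 29.3 CPM, those of 8 h 22.9, 29 and 30.1, and those of 24 h 35.5, 41.9 and 42.7. The values of 0 h and 8 h lay together, with replicate 1 lowest in both, and all 3 values of 24 h lay above them. The mean went from 27.2 ± 5.81 CPM at 0 h and 27.3 ± 3.89 at 8 h to 40 ± 3.96 at 24 h (SD, n = 3 each), but the test without a block did not pass. In that fit the log2 fold change at 24 h against 0 h was 0.55 (SE 0.16), with an edgeR adjusted p of 0.0725. With the replicate block it was 0.57 (SE 0.09), with an edgeR adjusted p of 0.00166. Against 8 h the log2 fold change was 0.55 (SE 0.16), with an edgeR adjusted p of 0.076. Between 0 h and 24 h, same-numbered libraries differed by 0.78, 0.40 and 0.54 on the log2 CPM scale. Their shared sign follows from the groups not overlapping. At 8 h against 0 h the log2 fold change was 0.00 (SE 0.16).

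DNMT3B (ENSG00000088305, chr20:32762385-32809356, plus strand), the other de novo enzyme and the more active one in early embryos, had the opposite sign. It was counted at 17.2, 16.9 and 19.9 CPM at 0 h, at 20.9, 16.2 and 21.8 at 8 h, and at 16.6, 16.5 and 14.3 at 24 h. The values of 24 h lay below those of 0 h by a narrow margin, and replicate 2 of 8 h lay among them. The log2 fold change was -0.19 (SE 0.14) at 24 h against 0 h, with an edgeR adjusted p of 0.391, and -0.31 (SE 0.14) against 8 h, with an edgeR adjusted p of 0.2. Neither passed the test.

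The balance of the de novo enzymes was also read within each library, where library scaling cancels. This ratio and the others below were chosen after the values were seen, and they carry no test, since an exact permutation test of 3 libraries against 3 cannot give a p below 0.1. The DNMT3A to DNMT3B ratio of counts per kilobase was 0.463, 0.726 and 0.566 at 0 h, 0.422, 0.691 and 0.531 at 8 h, and 0.822, 0.98 and 1.15 at 24 h. DNMT3B exceeded DNMT3A in all 6 libraries of 0 h and 8 h, while at 24 h the values lay around equality with merged exons as the length. The mean log2 ratio was -0.80 ± 0.32 at 0 h, -0.90 ± 0.36 at 8 h and -0.04 ± 0.24 at 24 h (SD, n = 3 each). With the longest transcript as the length, the 24 h means were 4.21 CPM per kilobase for DNMT3A and 3.64 for DNMT3B. A departure that differs between the 2 genes does not cancel in the ratio. Untreated replicate 1 differed from the mean of replicates 2 and 3 by -0.56 for DNMT3A and -0.09 for DNMT3B in log2 CPM. Against DNMT1, the DNMT3A ratio was 0.0463 to 0.0718 at 0 h and 0.0676 to 0.106 at 24 h, and these ranges overlapped.

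TET1 (ENSG00000138336, chr10:68560656-68694482, plus strand), which carries a CXXC domain that binds unmethylated CG, was the scarcest member and the one with the largest difference. Its raw counts were 25, 91 and 73 at 0 h, 62, 70 and 61 at 8 h, and 126, 146 and 122 at 24 h. In CPM these were 1.18, 3.50 and 3.23, then 2.81, 3.06 and 2.59, then 5.32, 6.29 and 5.05. All 3 libraries of 24 h stood above all 6 earlier ones, and untreated replicate 1 stood far below the rest. The log2 fold change at 24 h against 0 h was 1.06 (SE 0.30), with an edgeR adjusted p of 0.0667 without a block, and 1.10 (SE 0.25), with an edgeR adjusted p of 0.00968, with the replicate block. Against 8 h, whose libraries were close to each other, it was 0.98 (SE 0.30), with an edgeR adjusted p of 0.0858. Same-numbered libraries of 0 h and 24 h differed by 2.10, 0.83 and 0.63 on the log2 CPM scale. At 8 h against 0 h the log2 fold change was 0.09 (SE 0.32).

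TET2 (ENSG00000168769, chr4:105145875-105279816, plus strand), a frequent target of mutation in blood cancers, was counted at 20.7, 38.6 and 38.5 CPM at 0 h. It held 40.5, 41.5 and 35.2 CPM at 8 h and 41.7, 40.9 and 33.0 at 24 h. Untreated replicate 1 alone stood apart, and the other 8 libraries overlapped. Its log2 fold change was 0.24 (SE 0.20) at 24 h against 0 h, with an edgeR adjusted p of 0.46, and 0.26 (SE 0.20) at 8 h, with an adjusted p of 1.

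TET3 (ENSG00000187605, chr2:73986404-74108176, plus strand), the enzyme that oxidises the paternal genome in the zygote, was the most abundant TET transcript per kilobase of merged exons. Its libraries held 36.9, 50.6 and 52.2 CPM at 0 h, 66.5, 51.4 and 46.1 at 8 h, and 60.1, 52.2 and 47.1 at 24 h. Replicate 1 was lowest at 0 h and highest at 8 h and 24 h, and the groups overlapped. For TET3 the log2 fold change was 0.19 (SE 0.17) at 24 h against 0 h, with an edgeR adjusted p of 0.472, and 0.23 (SE 0.17) at 8 h, with an adjusted p of 1.

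Within libraries, the share of TET1 against its paralogues was higher at 24 h. The TET1 to TET2 ratio of counts per kilobase was 0.101, 0.161 and 0.149 at 0 h, 0.123, 0.131 and 0.131 at 8 h, and 0.227, 0.273 and 0.272 at 24 h. The values of 24 h lay above all others, and untreated replicate 1, low for both genes, was lowest in the ratio too. The mean log2 ratio was -2.90 ± 0.36 at 0 h, -2.97 ± 0.05 at 8 h and -1.97 ± 0.15 at 24 h (SD, n = 3 each). The TET1 to TET3 ratio was likewise apart, at 0.0421 to 0.0914 at 0 h, 0.0558 to 0.0786 at 8 h and 0.117 to 0.159 at 24 h. The TET2 to TET3 ratio was not, since it lay between 0.417 and 0.569 at 0 h and between 0.516 and 0.583 at 24 h.

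**Figure D3:**
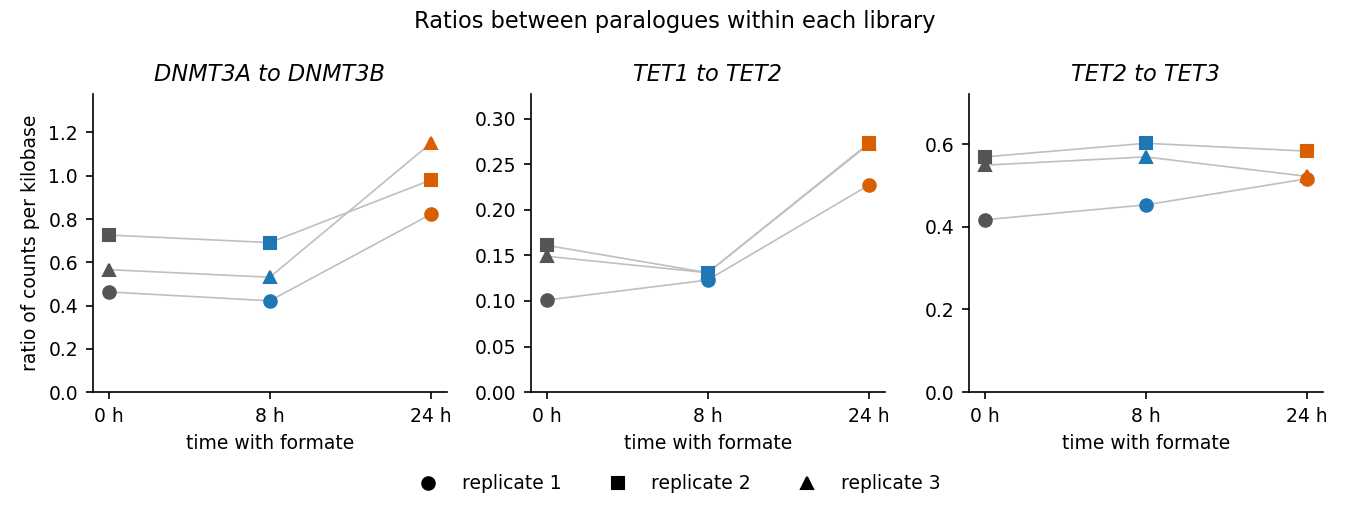
Ratio of counts per kilobase of merged exons between paralogues in each of the 9 libraries (vertical axes from 0), with lines joining libraries of the same replicate number. The DNMT3A to DNMT3B and TET1 to TET2 ratios are higher in the 3 libraries of 24 h than in the other 6, and the TET2 to TET3 ratio overlaps between groups.

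TDG (ENSG00000139372, chr12:103965804-103988874, plus strand), the glycosylase that follows the TET enzymes, was counted at 30.7, 32.9 and 32.6 CPM at 0 h, at 35.1, 33.1 and 34.8 at 8 h, and at 38.3, 29.9 and 30.6 at 24 h. The 8 h libraries lay just above the untreated ones, by 0.10 (SE 0.11) on the log2 scale with an edgeR adjusted p of 1, and the 24 h libraries lay on both sides of them. The log2 fold change at 24 h against 0 h was 0.04 (SE 0.11), with an edgeR adjusted p of 0.838. TDG, UHRF2 and TET1 each have an annotated pseudogene copy (TDGP1, UHRF2P1 and TET1P1), so the counts of these 3 genes are uncertain to the extent that reads were split with the copies.

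**Figure D4:**
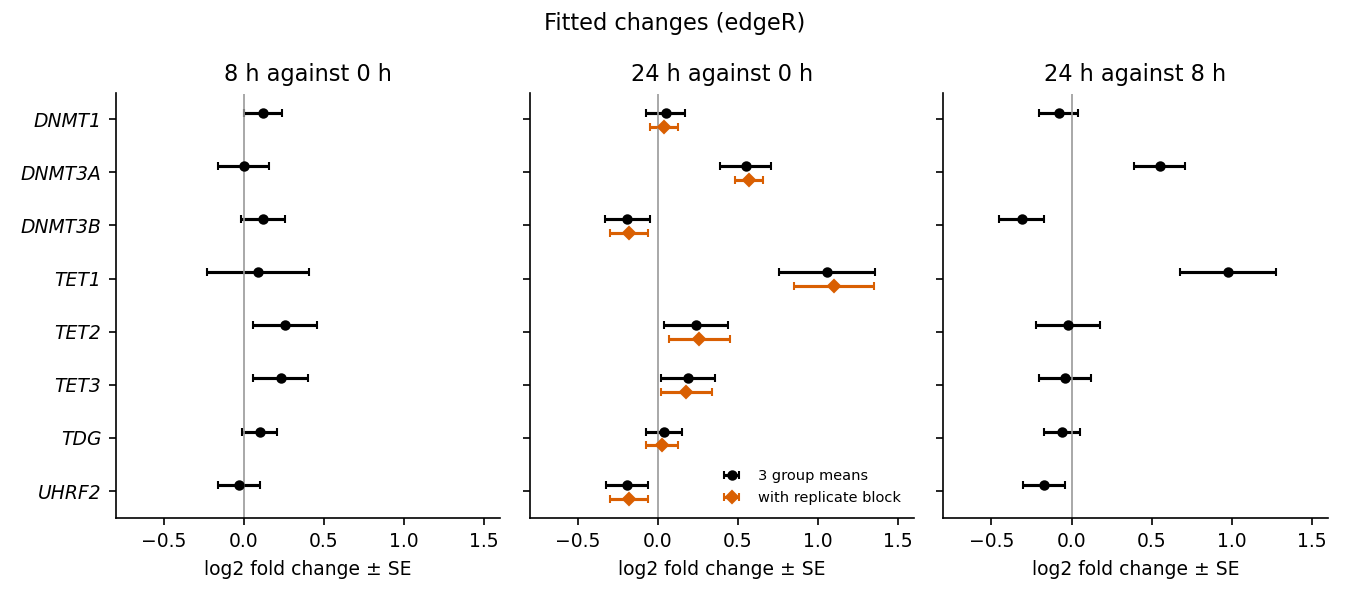
Fitted log2 fold change of the 8 genes in each comparison as point and standard error (horizontal axes), from the edgeR fit of 3 group means (circles) and, at 24 h against 0 h, with the replicate block (diamonds). TET1 and DNMT3A lie farthest to the right in both comparisons with 24 h, and no gene lies farther than 0.26 from 0 at 8 h.

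Untreated replicate 1 differed from the other untreated libraries in a way that followed transcript length, and this bears on the members with the longest transcripts. The chi-square per degree of freedom was 52.2 and 54.6 against untreated replicates 2 and 3, and 7.91 between those. Replicate 1 of 8 h also stood apart, at 20.5 and 21.6 against its group beside 9.96 between the others, and lay near untreated replicate 1 on the first principal component (-21.6 and -23.5, the others from -3.41 to 25), but its length classes departed by at most 0.09. Without it the log2 fold change at 24 h against 8 h was 0.42 for DNMT3A (edgeR adjusted p of 0.335) and 0.96 for TET1 (0.278). Replicate 1 of 24 h gave 12.7 and 22.3 against its group, beside 8.11 between the others. On the first principal component it lay at 9.56, beside 20 and 25 for replicates 2 and 3 of 24 h. Relative to the mean of untreated replicates 2 and 3, the median log2 CPM of untreated replicate 1 was 0.29 for genes whose longest transcript is under 2 kb. It was -0.40 for the 851 tested genes of 9 kb or more. The other 8 libraries departed from their groups by at most 0.21 in any length class. The members at 9 kb or more were TET1 (9.29 kb), DNMT3A (9.5 kb), TET2 (10.2 kb) and TET3 (11.4 kb), and their differences were -1.45, -0.56, -0.90 and -0.48. The other 4 members, between 3.25 and 5.41 kb, differed by -0.09 to 0.21. Over the 851 long genes the median log2 fold change was 0.19 at 24 h against 0 h and 0.06 against 8 h. The part of transcript length in the members' differences was not tested. Without untreated replicate 1, the log2 fold change at 24 h against 0 h was 0.70 for TET1 (edgeR adjusted p of 0.0693), 0.37 for DNMT3A (0.145), -0.02 for TET2 and 0.03 for TET3. With the block and without that library it was 0.72 for TET1 (edgeR adjusted p of 0.00626) and 0.47 for DNMT3A (0.000984). For 24 h against 8 h, leaving that library out of the shared fit gave 0.96 for TET1 (edgeR adjusted p of 0.00554) and 0.53 for DNMT3A (0.0124), so both passed there. In that fit 2545 genes of the whole table passed.

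**Figure D5:**
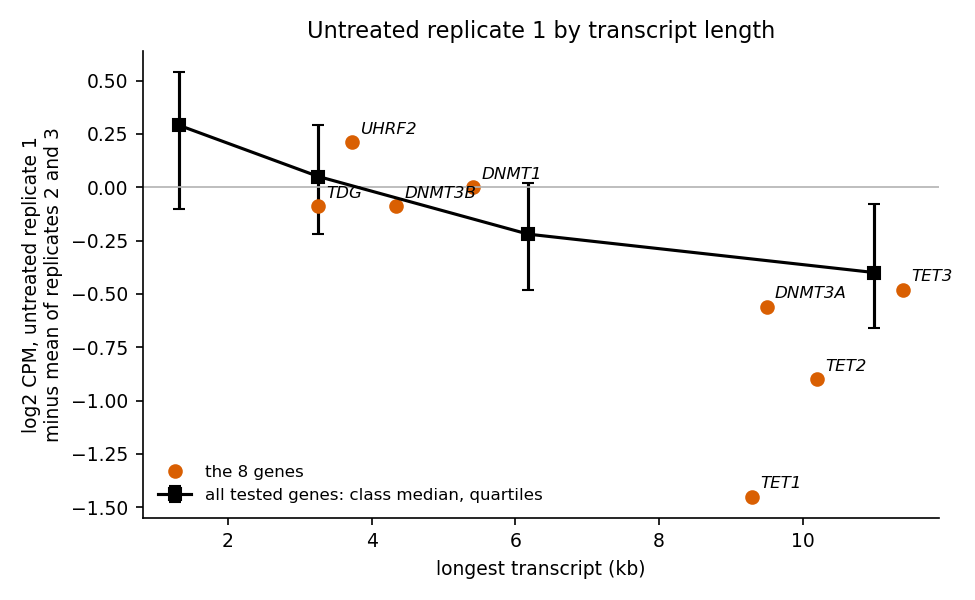
Log2 CPM of untreated replicate 1 minus the mean of untreated replicates 2 and 3 (vertical axis) against the length of the longest transcript in kb (horizontal axis), for the 8 genes (circles) and as median and quartiles of all tested genes in 4 length classes (squares, at the median length). The class medians run from 0.29 to -0.40, and TET1 and TET2 lie below the quartiles of their class.

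Genes of the same pathways were read from lists of partners. At 24 h against 0 h the fit without a block called 4.25% of all tested genes, and that with the block 24.1%. Each list count below stands beside these shares. Calls from the fit without a block rest on replicates 2 and 3 of 24 h, since leaving out either of them left 0 genes of the whole table past the threshold at 24 h against 0 h. Of 12 tested partners of maintenance and de novo methylation, 0 passed at 24 h against 0 h without the block and 3 with it (2 higher, 1 lower), and their median log2 fold change was 0.09 beside 0.01 over all tested genes. The smallest p-values were those of CDCA7, which activates the remodeller HELLS, at 0.64 (SE 0.18, edgeR adjusted p of 0.0612, or 0.00105 with the block), and PCNA, the sliding clamp that DNMT1 binds at forks, at 0.34 (SE 0.11, edgeR adjusted p of 0.0965, or 0.0212 with the block). CDCA7 held 28.3, 38.9 and 42.1 CPM at 0 h and 50.5, 61.1 and 59.2 at 24 h, which did not overlap. Of 8 genes listed as readers of methylated CG, 0 passed (1 with the block, lower) and the median was -0.13. The list is by name, and binding by each protein was not measured. MBD3 was at -0.41 (SE 0.20, edgeR adjusted p of 0.218, or 0.0276 with the block) and MBD2 at -0.23 (SE 0.13, edgeR adjusted p of 0.276). MBD3 held 177, 108 and 99.3 CPM at 0 h, with untreated replicate 1 highest, and 110, 85.6 and 93.8 at 24 h, which overlapped.

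Among 12 tested genes of base excision repair, 1 passed at 24 h against 0 h, beside 4.25% of all tested genes. UNG, the uracil glycosylase that clears deaminated cytosine and misincorporated uracil, held 44.7, 47.6 and 40.9 CPM at 0 h and 67.9, 62.8 and 56.7 at 24 h. It rose by 0.49 on the log2 scale (SE 0.11, edgeR adjusted p of 0.0321). XRCC1, the scaffold of this repair, had a log2 fold change of -0.38 (SE 0.12, edgeR adjusted p of 0.0813, or 0.0141 with the block), and 17.5% of its exons are overlapped on the opposite strand. With the block 2 of the 12 were called higher and 2 lower, beside 24.1% of all tested genes, and the median was -0.12.

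Of 12 tested TET partners and enzymes of 2-oxoglutarate, 2 passed at 24 h against 0 h, both higher, beside 4.25% of all tested genes. With the block 7 were called (5 higher, 2 lower), beside 24.1%. IDH1, the cytosolic enzyme that makes 2-oxoglutarate from isocitrate, held 69.5, 80.4 and 74.9 CPM at 0 h and 103, 108 and 118 at 24 h. It rose by 0.55 on the log2 scale (SE 0.11, edgeR adjusted p of 0.0267). CXXC5, a CXXC protein of the family that binds unmethylated CG, held 43.5, 56.3 and 48.4 CPM at 0 h and 78.1, 67.8 and 84.5 at 24 h, and rose by 0.64 (SE 0.14, edgeR adjusted p of 0.0353). Neither gene's libraries overlapped between these groups. The median of the list was 0.13.

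Of 9 tested genes that supply or recycle the methyl donor, 0 passed without the block and 2 with it, both higher, with a list median of 0.21. All tested genes were called in 4.25% of cases without the block and 24.1% with it. The smallest p-values were those of MTRR, the reductase that reactivates methionine synthase, at 0.32 (SE 0.11, edgeR adjusted p of 0.111, or 0.0202 with the block), and MTR, methionine synthase itself, at 0.31 (SE 0.12, edgeR adjusted p of 0.145, or 0.0384 with the block). Of 14 genes listed as silenced by promoter methylation, 7 were in the table and 4 were tested, and 0 passed at 24 h against 0 h without the block and 1 with it, H19. H19, an imprinted RNA of low level here, was at 0.942, 2.62 and 1.11 CPM at 0 h and 3, 3.97 and 3.31 at 24 h, with a log2 fold change of 1.11 (SE 0.41, edgeR adjusted p of 0.126) without the block and 1.21 (SE 0.25, edgeR adjusted p of 0.00564) with it. MAGEA3, a germline gene, was at 76.0 ± 11.7 CPM at 0 h (SD, n = 3) and had a log2 fold change of -0.17 (SE 0.12, edgeR adjusted p of 0.37). MAGEA1, also on the list, was at 64.0 ± 11.3 CPM at 0 h (SD, n = 3). Both were thus expressed in untreated cells, and their values do not describe silenced genes. MGMT, the repair gene whose methylation is tested in glioblastoma, had 0 counts among 209187252 in the 9 libraries, which allows a level of up to 0.0143 CPM, for counting error only.

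Part of the cell cycle genes differed at 24 h, and DNMT1 and its partners are tied to replication. Of 15 genes of G2 and M phase, 8 fell at 24 h against 0 h and 0 rose, beside 4.25% of all tested genes called. The median log2 fold change of the list was -0.52. The 8 were AURKA, BUB1, CCNB1, CCNB2, CDC20, DLGAP5, PLK1 and TPX2. CCNB1, cyclin B1, fell by 0.91 on the log2 scale (SE 0.16, edgeR adjusted p of 0.0215). Of 15 genes of S phase, 2 rose and 0 fell, with a median of 0.25 (7 and 1 with the block, beside 24.1% of all tested genes). The 2 were CCNE2 (0.82, SE 0.14, edgeR adjusted p of 0.0199) and MCM6 (0.58, SE 0.11, edgeR adjusted p of 0.0271). Fewer cells in a phase and less RNA per cell cannot be told apart in bulk samples. The part of cell cycle stage in the values of DNMT3A and TET1 was not tested.

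Genes whose log2 CPM ran most like a member's over the 9 libraries were named for the 3 members with the smallest p of the F test over the groups. For TET1 they were PAG1 (Pearson r = 0.996), ABCA13 (0.995) and ALDH1L2 (0.994). For DNMT3A they were SNAI2 (0.994), TP53INP1 (0.993) and FGFR3 (0.993). For DNMT3B they were TNPO2 (0.956), HELLPAR (0.956) and MIRLET7IHG (0.951). Without untreated replicate 1 these values lay between 0.958 and 0.993. They were picked as the highest among 15228 genes, the 9 points share groups and libraries, and no p is attached.

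Tested over all 3 groups at once, the F test gave its smallest p to TET1 (edgeR adjusted p of 0.0897), DNMT3A (0.0919) and DNMT3B (0.363), and 0 of the 8 passed, beside 3.64% of all tested genes.

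The libraries held 22222298 to 25848242 counts each, and 3 counts were worth 0.115 to 0.141 CPM. Of the markers used to check the line, VIM, NES and CD44 were abundant, with at least 703 CPM in every library, while GFAP lay between 0.129 and 0.425 CPM, near the level of 3 counts. The 8 glioma line markers summed to 6278 to 8628 CPM at 0 h and to 5354 to 6204 at 24 h, and S100B among them rose at 24 h against 0 h (log2 fold change of 1.38, edgeR adjusted p of 0.046). Markers of other cell types summed to 12.3 to 18.7 CPM at 0 h, 12.5 to 19.3 at 8 h and 23.9 to 31.1 at 24 h over the 7 of 10 in the table. Most of that was SNAP25, a vesicle gene of neurons (7.4 to 25.9 CPM, log2 fold change at 24 h of 1.09, edgeR adjusted p of 0.0356). PTPRC, EPCAM and PECAM1 were at 0 or near the level of 3 counts in every library. COL1A1 (2.37 to 5.66 CPM), CD14 (0.154 to 0.481) and MBP (0.0769 to 0.787) reached higher levels. The part of these markers in the members' values was not tested.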

How the data were processed

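Per the labels' protocols, total RNA was turned into stranded mRNA libraries and sequenced. The authors deposited raw counts per Ensembl gene for all 9 libraries. STAR 2.7.4a, bcl2fastq 2.20.0.422 and the build GRCh38 are named in the submitters' processing notes without a role. The counting program, the annotation release and the strand setting are not given in the sources used here.

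Symbols were read for 23619 of 23727 genes, and coordinates and lengths came from GENCODE release 29 (98.0% of the genes). The windows before gene starts came from RefSeq. All 9 libraries entered 1 fit of 3 group means in edgeR 4.0.16 (R 4.3.3) after filterByExpr and TMM scaling, with glmQLFTest, two-sided, and Benjamini-Hochberg adjustment over 15273 genes. CPM values carry the TMM factors (0.92 to 1.06). The threshold was an adjusted p of 0.05. DESeq2 1.42.0, the size factors of DESeq2, no filter, the 2 groups alone, a replicate block and leaving out each library were the alternatives. On simulated data, the fit recovered 85% of 100 genes changed 2-fold and 91% of 100 changed 3-fold at 24 h against 0 h among 15105 genes, and called 8 unchanged genes. The simulated libraries were independent, with a spread set by expression level only. They held no pairing and no departure of untreated replicate 1, so these shares are not the power of the test in the real libraries.

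The replicate numbers, which come from the sample titles, were taken to pair 0 h with 8 h and with 24 h, because the deviations from the group means of same-numbered libraries correlated across genes with r = 0.476, 0.432 and 0.414, and 0.367, 0.164 and 0.251. Of the libraries with different numbers, r lay between -0.364 and 0.0108 for 0 h with 8 h and between -0.4 and 0.27 for 0 h with 24 h. The highest of these, replicate 3 of 0 h with replicate 2 of 24 h, exceeded the same-numbered values of replicates 2 and 3, so the pairing of 24 h, on which the block calls of DNMT3A and TET1 rest, is a weaker reading than that of 8 h. In each group the deviations of a gene cancel, which pushes r for different numbers down where same-numbered r is positive. The pairing was also read from the same counts that the block fit used. Between 8 h and 24 h r was 0.423, 0.0367 and 0.404, and between -0.44 and 0.134 for different numbers. The block fit treats the replicate number as a factor over all 9 libraries, so it pairs these groups as well. Its calls for 24 h against 8 h are given only where the dependence on the processing is described.

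Members, gene lists and the naming rule were chosen with earlier results of these data known. All members are described, the 2 genes of each list ranked first by p in the comparison of 24 h with 0 h and any that pass are named, and 3 most similar genes are given for the 3 members with the smallest F test p.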

Additional observations from a re-analysis of the deposited data

Results flagged for a closer look

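For 14 genes of the lists, marker lists included, the change at 24 h differed from the change at 8 h, by the test of 24 h against 8 h in the shared edgeR fit (adjusted p under 0.05), and none of the 14 is one of the 8 members. All tested genes passed it in 4.56% of cases. The log2 fold changes of 24 h against 8 h were 0.54 for UNG, 0.74 for CXXC5, 0.57 for IDH1, 0.72 for CCNE2, 0.58 for MCM6, 1.48 for S100B and 1.05 for SNAP25. They were -0.75 for AURKA, -0.53 for BUB1, -0.79 for CCNB1, -0.55 for CCNB2, -0.81 for CDC20, -0.64 for DLGAP5 and -0.83 for PLK1. Without 8 h replicate 1, 24 h replicate 2 or 24 h replicate 3, 0 genes of the whole table passed in this comparison, and these 14 then did not pass either.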

How the results depend on the processing

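For 24 h against 0 h, 649 genes passed with edgeR, 645 with the size factors of DESeq2, 869 without a filter, 3687 with the replicate block, 124 with the 2 groups alone and 1594 with DESeq2. Leaving out 1 library gave 0 (without 24 h replicate 2 or 3) to 899, and 2213 to 3815 with the block (2339, 2482, 2519, 2743, 2934 and 3404 between these), fits added after seeing the data. For 24 h against 8 h, 696 passed, 3130 with the replicate block (which pairs these groups too), 1787 with the 2 groups alone, 1447 with DESeq2 and 0 to 2545 without 1 library. In the F test 556 passed, 2986 with the block, 1470 with DESeq2 and 0 to 1276 without 1 library. At 8 h against 0 h 0 passed in every fit (79 genes at an unadjusted p under 0.05 in edgeR, 66 in DESeq2, 155 with the block).

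DNMT3A and TET1, 2 of the 8 members, passed at 24 h against 0 h with the block and with DESeq2 (DESeq2 adjusted p of 0.0305 and 0.0125). These fits called 24.1% and 10.9% of the genes they tested. Against 8 h the same 2 passed with the block, with DESeq2, with the 2 groups alone and without untreated replicate 1. In that order these fits called 3130, 1447, 1787 and 2545 genes of the whole table, against 696 in the main fit. Without 1 library at 24 h against 0 h 0 members passed, and with the block 2 to 3 did, the third being UHRF2 without 24 h replicate 2 (edgeR adjusted p of 0.0254) or TET2 without untreated replicate 3 (0.0493). Those block fits called 2213 to 3815 genes of the whole table. Over the fits without 1 library, edgeR's adjusted p at 24 h against 0 h lay between 0.0566 and 0.263 for DNMT3A and between 0.0545 and 0.238 for TET1, and with the block between 0.000984 and 0.0108 and between 0.00364 and 0.0433. With all 9 libraries in the fit, the block changed no other member's call.

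Signs that turned without 1 library lay between these log2 fold changes. At 8 h against 0 h they were -0.16 to 0.13 for DNMT3A, -0.26 to 0.35 for TET1 and -0.11 to 0.08 for UHRF2. Those at 24 h against 0 h were -0.06 to 0.13 for DNMT1, -0.08 to 0.10 for TDG and -0.02 to 0.38 for TET2. With the block they were -0.07 to 0.12 for DNMT1, -0.09 to 0.10 for TDG, -0.07 to 0.49 for TET2 and -0.10 to 0.37 for TET3. Those at 24 h against 8 h were -0.18 to 0.00 for DNMT1, -0.10 to 0.07 for TET2 and -0.16 to 0.11 for TET3. No sign of DNMT3A, TET1, DNMT3B or UHRF2 turned at 24 h in any of these fits. With the longest transcript, levels per kilobase moved to 69.9 for DNMT1, 3.32 for DNMT3A, 3.61 for TET2, 10.2 for TDG and 17.8 for UHRF2. The cause of these shifts was not tested.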
